A study of Rattus norvegicus with 6 samples.

Results

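The genes described here are 53 rat genes of protein folding and the unfolded protein response, taken from a list of names and grouped by role: 17 chaperones and folding enzymes of the endoplasmic reticulum (ER), 3 sensors and transcription factors of the unfolded protein response, 5 genes of ER-associated degradation, 7 of the translocon and signal sequence receptor, 17 cytosolic heat shock genes and 4 mitochondrial chaperones. A probe set annotated to the gene alone was found for 49 of them, and 48 passed the filter on low signals, out of 10645 genes tested on the arrays. Kidney RNA of Cy/+ rats and of wild-type +/+ rats, all male and of the Han:SPRD strain, was hybridized to Affymetrix rat genome arrays, with 3 samples of each genotype and a single array for each sample. Cy/+ rats carry 1 copy of a missense allele of Anks6, develop cystic kidneys slowly and serve as a model of human autosomal dominant polycystic kidney disease, and the +/+ rats carry no copy of it. The age was 10 weeks in the sample labels and 5 weeks in the study's methods. Whether every array stands for a different animal is stated nowhere, and the p-values therefore cover only the variation between arrays, part of which may be technical.

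Cells that make secreted and membrane proteins fold them in the ER with chaperones of the HSP70 and HSP90 families, lectin chaperones and disulfide isomerases. When unfolded proteins accumulate there, the sensors IRE1 (encoded by Ern1), ATF6 and PERK raise the transcription of these chaperones and of the machinery that returns misfolded proteins to the cytosol for degradation, which together is called the unfolded protein response. In the cytosol, heat shock factor 1 (Hsf1) raises heat shock proteins under stress, and a further set of chaperones folds proteins imported into mitochondria. The kidney tubule, which is rich in transporters and mitochondria, uses all of these systems.

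Some of these genes carry, before their transcription start, the DNA elements through which both responses are known to act. RefSeq sequences of the assembly GRCr8 were available for 41 of the 53 genes, and the 250 bases before the start were searched on both strands. The ER stress response element (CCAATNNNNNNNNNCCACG), bound by ATF6 with NF-Y, was found in 7 of the 41 genes (17.1%) and in 22 of all 33469 promoters of the table (0.0657%). These 7 were Hspa5, Hsp90b1, Creld2, Canx, Xbp1, Dnajc3 and Calr. Its second form (ATTGG and CCACG with any 1 base between them) was found in Hyou1 and Herpud1, which is 4.88% of the 41 genes and 0.0418% of all promoters. The following stretches, each read 5′ to 3′ along the gene, show the genes of both forms that the results turn on, with the outer parts of the element in capitals. In Hspa5 and Hyou1 the XBP1 core TGACGTG is in capitals as well, and in Hyou1 it overlaps the element.
Hspa5, chr3:38452869-38453003, plus strand: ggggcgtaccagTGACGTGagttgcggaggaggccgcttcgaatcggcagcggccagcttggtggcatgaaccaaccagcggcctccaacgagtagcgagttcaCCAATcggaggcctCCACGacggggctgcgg
Hsp90b1, chr7:23012335-23012481, minus strand: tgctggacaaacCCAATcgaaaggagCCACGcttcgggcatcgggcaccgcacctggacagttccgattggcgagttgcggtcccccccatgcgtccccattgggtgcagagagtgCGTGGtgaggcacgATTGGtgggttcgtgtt
Calr, chr19:40213123-40213165, plus strand: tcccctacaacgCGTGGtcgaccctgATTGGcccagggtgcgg
Xbp1, chr14:84604546-84604588, plus strand: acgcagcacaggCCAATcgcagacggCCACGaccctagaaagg
Dnajc3, chr15:102432522-102432564, plus strand: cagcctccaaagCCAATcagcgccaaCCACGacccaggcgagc
Herpud1, chr19:10614809-10614843, minus strand: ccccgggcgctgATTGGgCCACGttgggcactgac
Hyou1, chr8:53602679-53602816, plus strand: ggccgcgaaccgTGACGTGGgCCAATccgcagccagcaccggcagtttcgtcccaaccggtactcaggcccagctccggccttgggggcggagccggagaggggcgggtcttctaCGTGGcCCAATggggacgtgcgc

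The XBP1 core was present in Bag3, Hspa5, Hyou1 and Hsph1 (9.76% of the 41 genes, 1.54% of all promoters). The heat shock element, searched as 3 alternating units 2 bases apart (GAANNTTCNNGAA or TTCNNGAANNTTC), was found in Serpinh1, Hspa8, Hspd1, Hspe1 and Hsph1 (12.2% of the 41 genes, 0.663% of all promoters). The units are in capitals below, as is the XBP1 core in Bag3 and Hsph1. Hspd1 and Hspe1 lie head to head, and the 38 bases of the Hspd1 line lie within the 42 of the Hspe1 line, on the opposite strand of chromosome 9. A match is a description of the letters, and a gene without a match lacks only these letters in this window.
Serpinh1, chr1:163062987-163063023, minus strand: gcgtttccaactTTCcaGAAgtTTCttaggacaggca
Hsph1, chr12:10427190-10427356, plus strand: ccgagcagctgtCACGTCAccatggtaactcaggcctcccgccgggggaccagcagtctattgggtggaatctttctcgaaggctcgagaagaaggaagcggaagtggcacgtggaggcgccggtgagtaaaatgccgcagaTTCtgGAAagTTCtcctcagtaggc
Hspd1, chr9:64084250-64084287, minus strand: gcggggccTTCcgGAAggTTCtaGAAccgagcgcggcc
Hspe1, chr9:64084250-64084291, plus strand: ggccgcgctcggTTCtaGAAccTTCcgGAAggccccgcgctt
Bag3, chr1:192533413-192533443, plus strand: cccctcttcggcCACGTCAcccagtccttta

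Values are MAS5 signal intensities on a linear scale in arbitrary units, compared on the log2 scale, and a log2 fold change is that of Cy/+ over +/+. Pairs of Cy/+ arrays correlated at 0.982 to 0.99 (Pearson r over log2 signals of all probe sets), pairs across genotypes at 0.907 to 0.94 and pairs of +/+ arrays at 0.997. The 3′ to 5′ signal ratio of the beta-actin control probe sets, which grows when RNA is degraded or copied incompletely, was 3.22 ± 0.26 in Cy/+ and 1.51 ± 0.0057 in +/+ (SD, n = 3 each, exact two-sided permutation test p = 0.1, the smallest that 3 arrays against 3 allow). The probe sets of spiked-in control RNA were also brighter on every Cy/+ array, by a median of 1.83-fold for the 18 hybridization controls and 3.82-fold for the 24 poly-A controls. All 12 proximal tubule markers fell in Cy/+ kidneys, with summed signals of 10130 to 27260 in Cy/+ and 96760 to 102300 in +/+. The 5 macrophage markers tested all rose, with sums of 10910 to 14970 in Cy/+ and 5343 to 6220 in +/+, and 4 of the 6 fibroblast markers tested rose (Lum and Postn were below the filter), with sums of 12740 to 26560 in Cy/+ and 5063 to 5990 in +/+. The part of RNA quality and of cell composition in the results that follow was not tested. In whole-kidney RNA, fewer cells of a type and less RNA per cell cannot be told apart. Cy/+ replicate 1 stood apart from the other Cy/+ arrays for ER chaperones, and the genes whose call changed without it are given without it as well.

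Of the 48 genes tested, 10 were higher and 15 lower in Cy/+ kidneys at an adjusted p under 0.05 (limma, Benjamini-Hochberg over all 18625 probe sets tested), and 23 did not pass. That is 20.8% higher and 31.2% lower, against 37.4% higher and 29.3% lower among all 10645 genes. Their median log2 fold change was -0.04, against 0.09 over all genes. The share of higher genes lay below the background of the arrays and the share of lower genes near it. The split depended on scaling. With quantile normalization 15 were higher and 15 lower, and with arrays centred on their median 7 were higher and 17 lower. By role, on the brightest probe set of each gene, no gene rose among ER-associated degradation and mitochondrial chaperones. There 4 of 5 and 4 of 4 fell (limma, and 0 rose in either role at an unadjusted p under 0.05 or by the methods' test). ER chaperones mostly did not pass, and cytosolic heat shock genes were split into 5 higher and 4 lower.

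**Figure D1:**
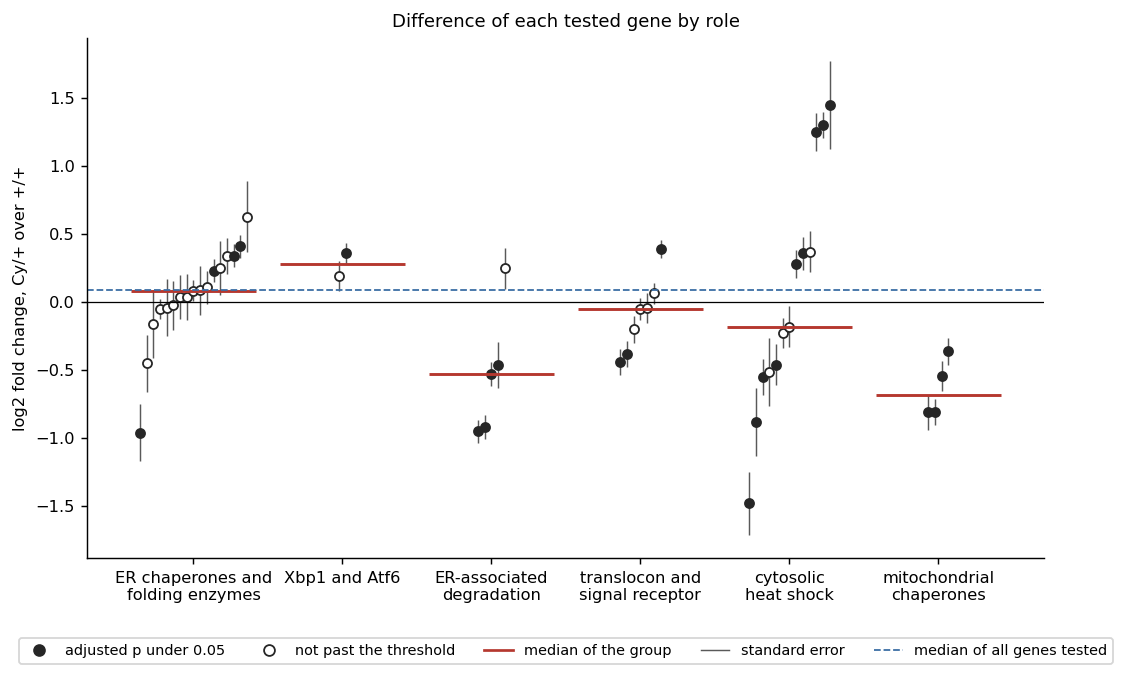
Log2 fold change of Cy/+ over +/+ for each of the 48 tested genes, by role on the x axis, with the standard error as a bar and filled points for an adjusted p under 0.05. The medians of ER-associated degradation (-0.53) and mitochondrial chaperones (-0.68) lie below that of all genes tested (0.09), and the cytosolic heat shock genes spread from -1.48 to 1.45.

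Among the 17 ER chaperones and folding enzymes, 3 rose (17.6%), 1 fell (5.88%) and 13 did not pass. Both shares lay below those of all genes. With quantile normalization 6 of the 17 rose, and the share of all genes under that scaling was not counted. The median log2 fold change was 0.09, equal to that of all genes at this rounding. Hspa5 encodes BiP, the HSP70 of the ER and the usual readout of the unfolded protein response. It gave signals of 5806, 3031 and 2958 in Cy/+ and 4456, 4328 and 3731 in +/+. Cy/+ replicate 1 lay above all +/+ arrays and the other two Cy/+ arrays below all of them, and the log2 fold change was -0.16 ± 0.25 (SE, adjusted p = 0.604). Hsp90b1, the HSP90 of the ER, gave 8121, 5325 and 5364 in Cy/+ and 6111, 6285 and 5578 in +/+, the same arrangement (0.04 ± 0.17, adjusted p = 0.85). Both genes carry the ER stress response element shown above, Hsp90b1 at 2 places. Of the 7 genes with that element only Dnajc3 passed, on the brightest probe sets, with all arrays and without further scaling. Among all genes, 37.4% were higher and 29.3% lower. Canx passed as lower on its dimmer probe sets, at -0.61 and -1.49, and Hspa5 as lower without Cy/+ replicate 1.

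Cy/+ replicate 1 had the highest signal of the Cy/+ arrays in 16 of the 17 ER genes (94.1%), against 41.5% of all 10645 genes. Relative to the +/+ mean, the median ER gene stood at a log2 value of 0.40 in Cy/+ replicate 1, -0.05 in replicate 2 and -0.06 in replicate 3. Replicate 1 lay above every +/+ array for 15 of the 17 genes (88.2%), against 50.7% of all genes. Replicates 2 and 3 each lay above every +/+ array for 6 (35.3%), against 50% and 49.8% of all genes, and below every +/+ array for 8 (47.1%), against 42.2% and 41% of all genes. The spread between Cy/+ arrays was accordingly wide, with a median SD of 0.349 on the log2 scale in Cy/+ and 0.0652 in +/+, against 0.16 in Cy/+ and 0.0832 in +/+ over all genes. The fibroblast markers had their highest sum on the same array, at 26560 in Cy/+ replicate 1, 12740 in replicate 2 and 14080 in replicate 3. So had the macrophage markers (14970, 11620 and 10910) and the proximal tubule markers (27260, 10130 and 23140). The thick limb and distal tubule markers had their lowest sum on Cy/+ replicate 1 (19640, 19870 and 30390). The 5 collecting duct markers, 0 of which passed with limma, at an unadjusted p under 0.05 or by the methods' test, had their lowest sum there, at 4073 in replicate 1, 14310 in replicate 2 and 9753 in replicate 3, with 5012 to 5927 in +/+. Jchain, a marker of plasma cells, which are rich in ER chaperones, gave 582, 1284 and 760.7 in Cy/+ and 71.46, 66.68 and 90.65 in +/+, while the markers Mzb1, Cd79b, Ms4a1 and Tnfrsf17 were below the filter. The part of these cells in the result was not tested.

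**Figure D2:**
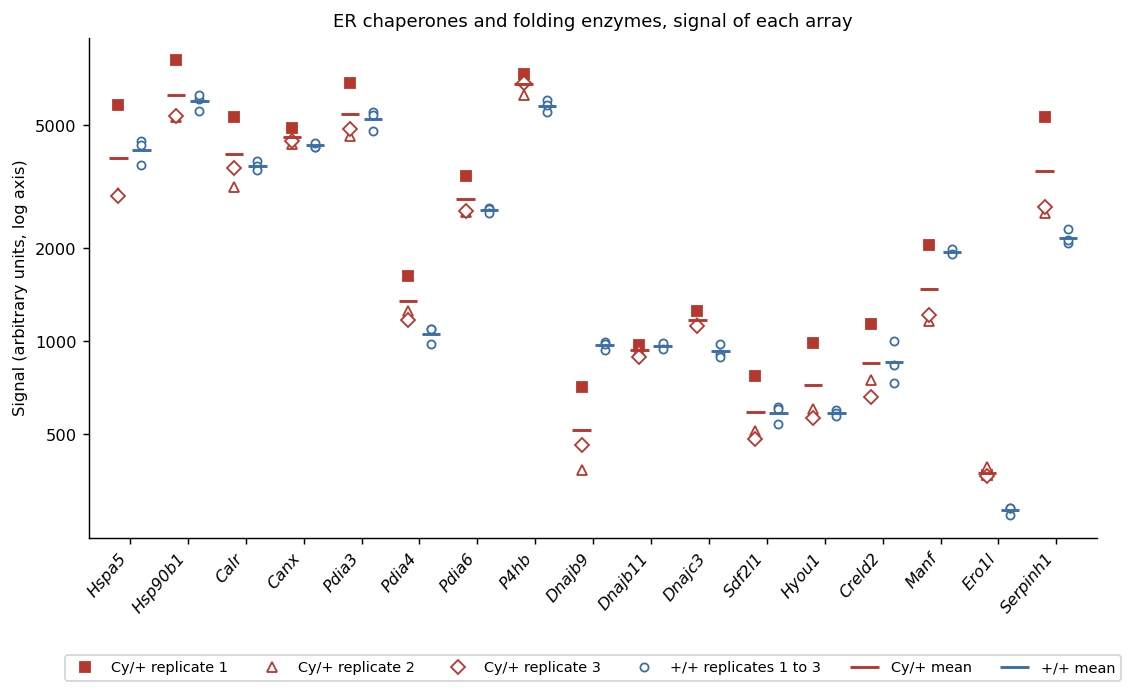
Signal intensity of each array (log axis) for the 17 ER chaperones and folding enzymes, with Cy/+ on the left of each gene and +/+ on the right, and short lines for the arithmetic means of 3 arrays. The filled squares of Cy/+ replicate 1 are the highest Cy/+ points for 16 of the 17 genes.

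Without Cy/+ replicate 1, Hspa5 was lower in Cy/+ (log2 fold change -0.47, adjusted p = 0.00387, limma). So was Manf, a small ER protein released under ER stress, which gave 2053, 1163 and 1214 in Cy/+ and 1925, 1997 and 1913 in +/+. Its log2 fold change was -0.45 ± 0.21 (adjusted p = 0.0943) with all arrays and -0.71 (adjusted p = 0.00015) without replicate 1. The number of ER genes that fell was 1 with all arrays and 3 without that array. Serpinh1, the collagen chaperone HSP47, gave 5342, 2605 and 2720 in Cy/+ and 2077, 2302 and 2124 in +/+. All Cy/+ arrays lay above all +/+ arrays, but replicate 1 had 2.01 times the mean of the others, and the difference of 0.63 ± 0.26 did not pass (adjusted p = 0.066). Without replicate 1 it was 0.30 and passed (adjusted p = 0.0119). The fibroblast marker Col1a1, a collagen gene, gave 5346, 3763 and 4053 in Cy/+ and 344.7, 226.7 and 264.3 in +/+, and the part of fibroblasts in the Serpinh1 values was not tested.

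The 3 ER genes that rose were Ero1l, Dnajc3 and P4hb, all by small factors. Ero1l, the oxidase that recharges the disulfide isomerases, gave 370.4, 390.5 and 367.1 in Cy/+ and 273.2, 288.1 and 289.5 in +/+ (0.41 ± 0.08, adjusted p = 0.00367). Its second probe set rose as well, by 0.55 on the log2 scale. Dnajc3, a J protein that works with BiP and inhibits PERK, gave 1258, 1142 and 1118 in Cy/+ and 907.2, 983.1 and 890.5 in +/+ (0.34 ± 0.09, adjusted p = 0.01). P4hb, the founding disulfide isomerase and a subunit of prolyl 4-hydroxylase, gave 7329, 6251 and 6860 in Cy/+ and 5525, 6045 and 5822 in +/+ (0.23 ± 0.08, adjusted p = 0.0438). The groups did not overlap in any of the 3 genes, which were singled out for passing. How many of all genes had no overlap was not counted, here or for the other roles. P4hb lost its call in 10 of the 19 alternative settings, among them that without Cy/+ replicate 1 (0.18, adjusted p = 0.0921), and Ero1l and Dnajc3 in none.

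Dnajb9 was the 1 ER chaperone that fell. It encodes ERdj4, a J protein induced by spliced XBP1 that recruits BiP to IRE1. Signals were 709.9, 382.5 and 461.3 in Cy/+ and 937.8, 996.7 and 982.4 in +/+, with every Cy/+ array below every +/+ array (-0.96 ± 0.21, adjusted p = 0.00561). Even Cy/+ replicate 1, the highest of the Cy/+ arrays, was below the +/+ arrays, and without it the difference was -1.21.

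The other 9 ER genes did not pass the test, with log2 fold changes from -0.05 (Dnajb11, a BiP cofactor) to 0.34 (Pdia4). Pdia4, a disulfide isomerase, gave 1624, 1253 and 1174 in Cy/+ and 1100, 1094 and 978.3 in +/+ without overlap, and its adjusted p was 0.0552. The lectin chaperones Calr and Canx stood at 0.09 each, the isomerases Pdia3 at 0.04 and Pdia6 at 0.11, and the BiP partners Sdf2l1 at -0.02 and Hyou1 at 0.25. Creld2, an ER stress protein, stood at -0.04. In Hyou1, which carries the second form of the element at 2 places, Cy/+ replicate 1 gave 990.3 and the other Cy/+ arrays 605.3 and 564.5, with 600.2, 587.2 and 572.5 in +/+. Without replicate 1 its log2 fold change was -0.00488. On its dimmer probe set Hyou1 passed as lower, with 128.6, 87.71 and 104 in Cy/+ and 190.2, 187.6 and 170.5 in +/+ (-0.79 ± 0.15, adjusted p = 0.00272), so that the direction of this gene rests on the probe set chosen.

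**Figure D3:**
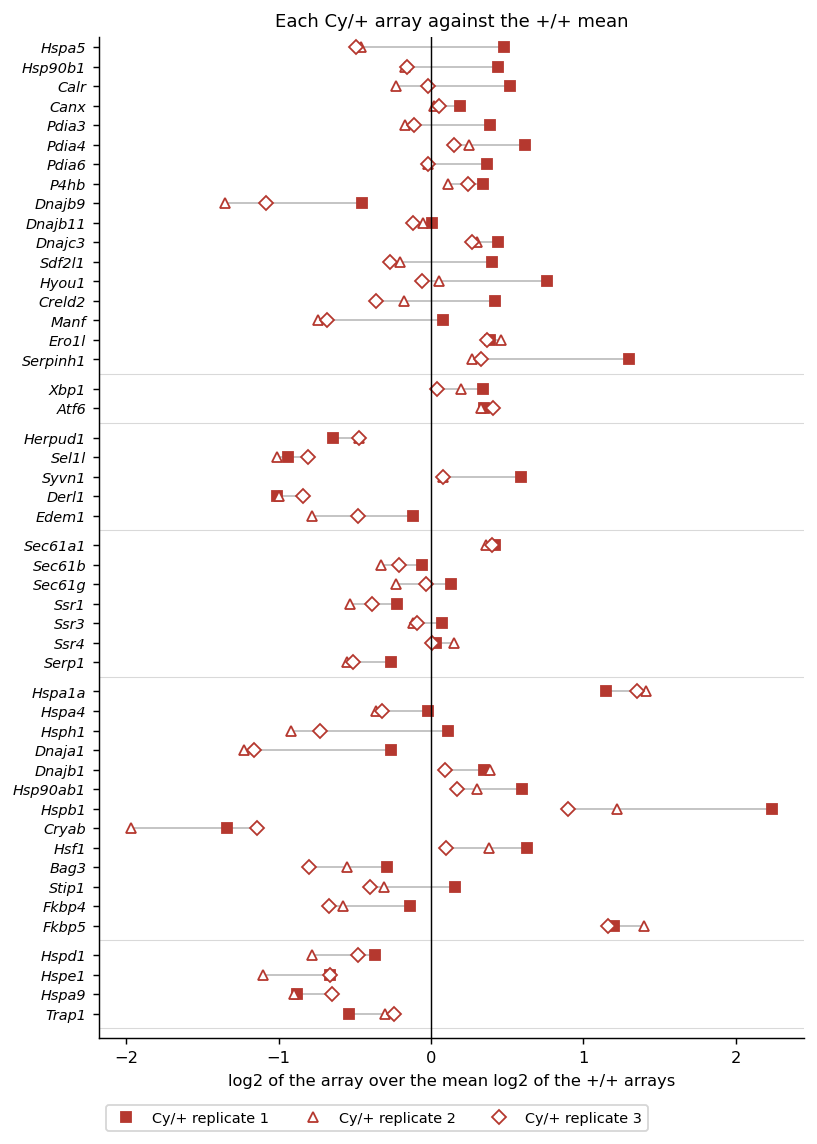
Log2 of each Cy/+ array over the mean log2 signal of the 3 +/+ arrays (x axis) for the 48 tested genes, in order of role from ER chaperones at the top to mitochondrial chaperones at the bottom, with a filled square for Cy/+ replicate 1. Replicate 1 lies to the right of the others for 36 of the 48 genes, and in Sel1l, Derl1, Atf6 and Hspa1a the 3 arrays lie close together.

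Of the sensors, Atf6 rose and Xbp1 did not pass. Ern1 had no probe set named for it. Atf6, the sensor that is cut in the Golgi to free a transcription factor, gave 1753, 1729 and 1819 in Cy/+ and 1447, 1294 and 1379 in +/+, without overlap and with little spread (0.36 ± 0.08, adjusted p = 0.00448). Its dimmer probe set, with means of 103.9 in Cy/+ and 96.69 in +/+, did not pass. Xbp1, the factor whose mRNA IRE1 splices, gave 3797, 3446 and 3092 in Cy/+ and 2652, 3119 and 3267 in +/+ with overlapping groups (0.19 ± 0.11, adjusted p = 0.165). Spliced and unspliced Xbp1 mRNA were not told apart by this measurement.

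Of the 5 listed genes of ER-associated degradation, 4 were lower (80%, against 29.3% of all genes). Of 10 other genes of this process, described below, 3 rose and 2 fell. Sel1l, the partner that steadies the ubiquitin ligase Hrd1, gave 332.1, 315.2 and 362.5 in Cy/+ and 650.4, 617.1 and 640.4 in +/+ (-0.92 ± 0.09, adjusted p = 0.000129). Derl1, part of the channel through which misfolded proteins leave the ER, gave 982.2, 991.1 and 1112 in Cy/+ and 2018, 2067 and 1872 in +/+ (-0.95 ± 0.09, adjusted p = 0.000105). In both genes the arrays of a genotype lay close together and the Cy/+ signals were 0.529 of the +/+ signals for Sel1l and 0.518 for Derl1. Herpud1, a membrane scaffold of the Hrd1 complex and an ER stress gene, gave 1325, 1481 and 1481 in Cy/+ and 2110, 2168 and 1905 in +/+ (-0.53 ± 0.09, adjusted p = 0.00152). It carries the second form of the ER stress response element shown above. These 3 calls held in all 19 alternative settings. None of the settings used the middle probe set of Derl1 by itself, which stood at 0.21 and did not pass.

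Edem1, a lectin that selects glycoproteins for degradation, gave 1096, 691.9 and 852.7 in Cy/+ and 1223, 1290 and 1063 in +/+. The groups overlapped through Cy/+ replicate 1, and the call was near the threshold (-0.46 ± 0.17, adjusted p = 0.0469). It was lost in 10 of the 19 settings, and without Cy/+ replicate 1 the difference was -0.63 (adjusted p = 0.00347). Both dimmer probe sets of Edem1 fell without overlap, by 1.4 and 1.2 on the log2 scale. Syvn1, the ligase Hrd1 itself, gave 654.7, 462.4 and 462.2 in Cy/+ and 401.8, 440.4 and 469.5 in +/+ and did not pass (0.25 ± 0.15, adjusted p = 0.183). Without Cy/+ replicate 1 its log2 fold change was 0.08 (adjusted p = 0.441).

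Among the 7 genes of protein entry into the ER, 1 rose, 2 fell and 4 did not pass. That is 14.3% higher and 28.6% lower, against 37.4% and 29.3% of all genes. Sec61a1, the channel subunit, gave 2384, 2287 and 2356 in Cy/+ and 1820, 1782 and 1759 in +/+ (0.39 ± 0.07, adjusted p = 0.00176). Serp1, a small protein that stabilizes membrane proteins at the translocon under stress, gave 2830, 2311 and 2381 in Cy/+ and 3406, 3528 and 3234 in +/+ (-0.44 ± 0.10, adjusted p = 0.0057). Ssr1, a subunit of the signal sequence receptor, gave 1206, 973 and 1071 in Cy/+ and 1395, 1384 and 1434 in +/+ (-0.38 ± 0.10, adjusted p = 0.0101). The groups did not overlap in these 3 genes, which were singled out for passing. Sec61b, Sec61g, Ssr3 and Ssr4 had log2 fold changes from -0.20 to 0.06 and overlapping groups. All of these values are from the brightest probe sets. A dimmer probe set of Sec61a1 passed as lower, and dimmer ones of Ssr3 passed in both directions, as given below.

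On the brightest probe set of each gene, the cytosolic heat shock genes moved furthest in both directions. Of the 13 tested, 5 rose, 4 fell and 4 did not pass, which is 38.5% higher and 30.8% lower and close to the background of all genes. Hspa1a, the stress-inducible HSP70, gave 1192, 1434 and 1369 in Cy/+ and 551.3, 515 and 548 in +/+ (2.47-fold, log2 1.30 ± 0.10, adjusted p = 5.03e-05). Here Cy/+ replicate 1 was the lowest of the Cy/+ arrays. A further probe set annotated to Hspa1b and Hspa1a together, which cannot tell these near-identical copies apart, gave 1693, 1806 and 1605 in Cy/+ and 639, 438.6 and 468.2 in +/+ (1.74 ± 0.15, adjusted p = 8.4e-05). Hspa8, the constitutive HSP70, was measured only by a probe set shared with another entry, with 17740, 13700 and 14030 in Cy/+ and 16260, 16210 and 15920 in +/+ (-0.10 ± 0.11, adjusted p = 0.435). The inducible form rose on every Cy/+ array, and the probe set of the constitutive form did not pass.

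The small heat shock proteins Hspb1 and Cryab moved in opposite directions. Hspb1 (HSP27), an actin-associated chaperone, gave 3627, 1792 and 1440 in Cy/+ and 641.1, 851.1 and 837.5 in +/+. Every Cy/+ array was above every +/+ array, with replicate 1 at 2.24 times the mean of the others (2.74-fold, 1.45 ± 0.32, adjusted p = 0.00596). Without that array the log2 fold change was 1.06 and still passed (adjusted p = 0.000863). Cryab (αB-crystallin), abundant in muscle, lens and the inner kidney, gave 2726, 1753 and 3128 in Cy/+ and 6249, 8412 and 6202 in +/+ (-1.48 ± 0.23, adjusted p = 0.00102). It was the largest fall among the 48 genes on their brightest probe sets, again without overlap. Beside these, the muscle marker Des rose by 1.32 on the log2 scale, Myh11 did not pass, and Actg2 and Cnn1 were below the filter. The 6 thick limb and distal tubule markers had sums of 19640 to 30390 in Cy/+ and 32110 to 34160 in +/+, with 1 higher and 2 lower. The part of these cells in the result was not tested. Hspb8, another small heat shock protein, was below the filter at 51.57 ± 10.8 in Cy/+ and 71.43 ± 2.68 in +/+ (SD, n = 3 each) and was not tested.

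**Figure D4:**
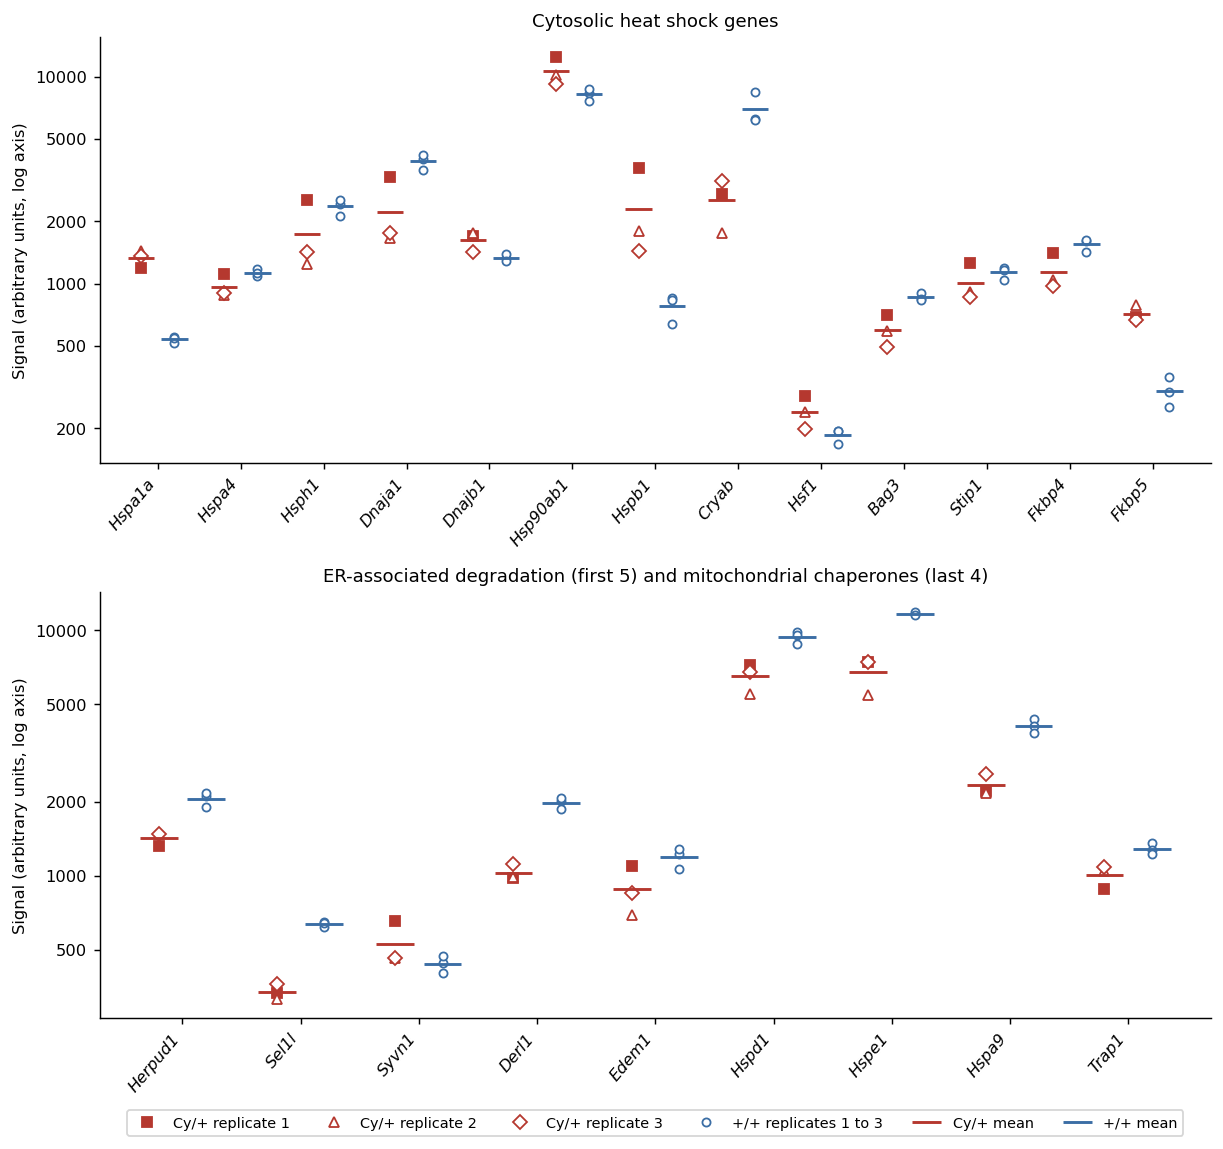
Signal intensity of each array (log axis) for the 13 cytosolic heat shock genes (upper panel) and for ER-associated degradation and mitochondrial chaperones (lower panel), with Cy/+ left of +/+ in each gene and short lines for the arithmetic means of 3 arrays. Each gene is shown on its brightest probe set. Hspa1a, Hspb1 and Fkbp5 lie higher on every Cy/+ array, and Cryab, Sel1l, Derl1 and all 4 mitochondrial genes lie lower on every Cy/+ array.

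The immunophilins, which bind HSP90 and steroid receptors, also split. Fkbp5, an inducible target of the glucocorticoid receptor, gave 687.6, 789.7 and 667.4 in Cy/+ and 352.8, 252.9 and 299.4 in +/+ (2.38-fold, 1.25 ± 0.14, adjusted p = 0.000239). Its dimmer probe set did not pass, at -0.29. Fkbp4, its close relative, gave 1413, 1040 and 973.4 in Cy/+ and 1611, 1632 and 1422 in +/+ (-0.46 ± 0.15, adjusted p = 0.0276). The Fkbp5 groups lay far apart, while the highest Cy/+ array of Fkbp4 was just below the lowest +/+ array.

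Hsp90ab1, the constitutive cytosolic HSP90, gave 12480, 10140 and 9228 in Cy/+ and 8384, 8692 and 7646 in +/+ (0.36 ± 0.12, adjusted p = 0.0343). Without Cy/+ replicate 1 it was 0.23 (adjusted p = 0.0539), and the call was lost in 8 of the 19 settings. Its second probe set rose by 0.64. Hsp90aa1, the inducible form, was measured only by 2 probe sets shared with a pseudogene, at -0.13 (adjusted p = 0.608) and -0.36 (adjusted p = 0.211). On the brighter of them Cy/+ replicate 1 gave 8170 and the other Cy/+ arrays 4498 and 5142, with 6623, 6412 and 5799 in +/+.

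Of the cochaperones of HSP70 among the 53 genes, Dnaja1 and Bag3 fell and Dnajb1 rose. Dnaja1, a J protein, gave 3273, 1667 and 1753 in Cy/+ and 4022, 4200 and 3548 in +/+ (-0.88 ± 0.25, adjusted p = 0.0165), and its second probe set fell by 0.89. Bag3, which links HSP70 to small heat shock proteins and autophagy, gave 705.3, 588.6 and 494.6 in Cy/+ and 905.7, 842.8 and 836.6 in +/+ (-0.55 ± 0.13, adjusted p = 0.0091). Dnajb1, the J protein of the heat shock response, gave 1697, 1754 and 1416 in Cy/+ and 1336, 1388 and 1281 in +/+ (0.28 ± 0.10, adjusted p = 0.0441). That call was lost in 12 of the 19 settings and turned direction in 2, and without Cy/+ replicate 1 the difference was 0.24 (adjusted p = 0.0778). Hsf1, the transcription factor of that response, gave 285.9, 240.3 and 197.9 in Cy/+ and 168.5, 194.2 and 194 in +/+ without overlap, and did not pass (0.37 ± 0.15, adjusted p = 0.0623).

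Hsph1, Hspa4 and Stip1 did not pass with all arrays. Hsph1, an exchange factor of HSP70 with the heat shock element shown above, gave 2545, 1249 and 1424 in Cy/+ and 2440, 2533 and 2118 in +/+ (-0.51 ± 0.25, adjusted p = 0.11). Without Cy/+ replicate 1 it was -0.82 (adjusted p = 0.000486). Its dimmer probe set fell with all arrays, with 647.8, 301.4 and 390.9 in Cy/+ and 1202, 1106 and 951.6 in +/+ (-1.35 ± 0.26, adjusted p = 0.00321). Hspa4, another exchange factor, then stood at -0.34 (adjusted p = 0.00489) and Stip1, which bridges HSP70 and HSP90, at -0.35 (adjusted p = 0.00924), so that 7 cytosolic genes fell without that array and 4 with it. Sec61b passed as lower without it too (-0.27, adjusted p = 0.0278).

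All 4 mitochondrial chaperones fell on their brightest probe sets, against 29.3% of all genes. Hspe1 and Hspd1, the lid and the ring of the mitochondrial chaperonin, share the promoter shown above. Hspe1 gave 7404, 5441 and 7397 in Cy/+ and 11680, 11910 and 11500 in +/+ (-0.81 ± 0.13, adjusted p = 0.00117). Hspd1 gave 7247, 5482 and 6741 in Cy/+ and 9836, 9529 and 8836 in +/+ (-0.54 ± 0.11, adjusted p = 0.00464). In both, Cy/+ replicate 2 was the lowest array. Hspa9, the mitochondrial HSP70, gave 2221, 2178 and 2599 in Cy/+ and 4334, 4086 and 3826 in +/+ (-0.81 ± 0.10, adjusted p = 0.000315). Its dimmer tested probe sets passed in opposite directions, with log2 fold changes of -1.88 and 0.89. Trap1, the mitochondrial HSP90, gave 881.6, 1044 and 1084 in Cy/+ and 1354, 1271 and 1224 in +/+ (-0.36 ± 0.10, adjusted p = 0.0164). On the brightest probe sets the groups did not overlap in any of the 4, a count without a background over all genes. The summed proximal tubule markers, from cells rich in mitochondria, were 27260, 10130 and 23140 on Cy/+ replicates 1, 2 and 3. They too were lowest on replicate 2, while Trap1 was lowest on replicate 1, where these markers were highest. Their part in the result was not tested.

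Genes with several tested probe sets did not give a single answer in every case. Of 17 such members, the dimmest probe set had a lower log2 fold change than the brightest in 12 (70.6%), against 72.3% of 2818 such genes on the arrays. In 4 of the 17 (23.5%) probe sets passed in both directions, against 16.3% of all such genes. Sec61a1 rose by 0.39 on its brightest probe set and fell on the next, with 291.1, 327.3 and 358.2 in Cy/+ and 666.2, 671 and 610 in +/+ (-1.0 ± 0.10, adjusted p = 0.000184). Ssr3, a signal sequence receptor subunit, stood at -0.05 on its brightest probe set, 0.70 (adjusted p = 0.000174) on the next and -2.11 (adjusted p = 4.96e-05) on the dimmest. Hspa9 was lower on its brighter probe sets, at -0.81 and -1.88, and higher on another, with 396, 381.4 and 411.2 in Cy/+ and 232.7, 201 and 210.5 in +/+ (0.89 ± 0.09, adjusted p = 0.000195). Dnajb1 had 602.2, 545.4 and 550.8 in Cy/+ and 1139, 1053 and 1035 in +/+ on its dimmer probe set (-0.93 ± 0.08, adjusted p = 0.000108), opposite to the brighter. Canx, which did not pass on the brightest, stood at -0.61 and -1.49 on the others. Derl1 passed as lower on the brightest and dimmest of 3, at -0.95 and -0.41, and did not pass on the middle one, at 0.21. The probe sets of a gene can lie at different distances from the 3′ end, where labeling starts, and the 3′ to 5′ ratios of the controls differed between the genotypes, at 1.85 ± 0.10 in Cy/+ and 1.18 ± 0.036 in +/+ for GAPDH and 4.46 ± 0.05 in Cy/+ and 3.83 ± 0.053 in +/+ for hexokinase (SD, n = 3 each). The part of this in the result was not tested, and the direction of these genes rests on the probe set chosen.

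**Figure D5:**
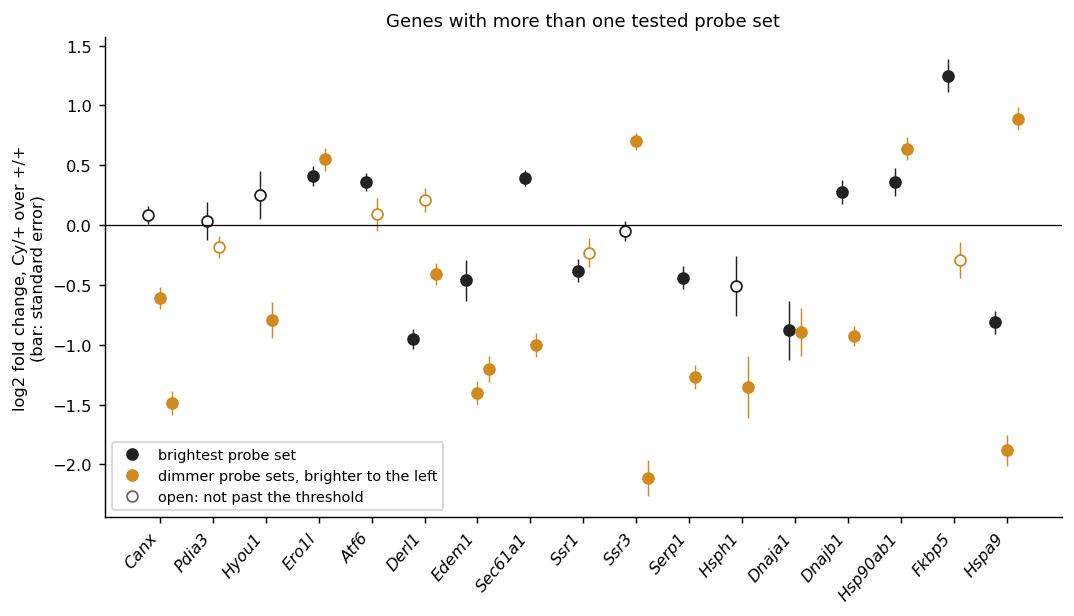
Log2 fold change of Cy/+ over +/+ (y axis, bars for the standard error) on every tested probe set of the 17 genes with more than 1, the brightest in black and dimmer ones in orange, with open points for those that did not pass. Dnajb1, Hspa9, Sec61a1 and Ssr3 have filled points on both sides of 0.

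Other genes of these pathways, from lists that hold none of the 53, gave 27 higher, 20 lower and 40 not past the threshold of 87 tested, with a median log2 fold change of 0.05. That is 31% higher and 23% lower, below the 37.4% and 29.3% of all genes in both directions. Of the 7 tested genes of the PERK branch, which slows translation under stress, 4 rose (57.1%, against 37.4% of all genes) and 0 fell by limma, with 0 lower at an unadjusted p under 0.05 or by the methods' test. Atf3, a stress-induced transcription factor, gave 479.5, 265.4 and 296.2 in Cy/+ and 73.68, 66.39 and 60.99 in +/+ (2.33 ± 0.22, adjusted p = 0.000128). Nupr1, a stress-induced chromatin protein, gave 1552, 1737 and 1961 in Cy/+ and 233.2, 339.2 and 392.7 in +/+ (2.47 ± 0.20, adjusted p = 6.62e-05). Ppp1r15a (GADD34), the phosphatase subunit that restores translation, rose by 0.69 and Ddit3 (CHOP), the factor tied to cell death under ER stress, by 0.30. The branch's sensor Eif2ak3, its central factor Atf4 and its target Chac1 did not pass, at 0.17, 0.11 and -0.06, and Trib3 was below the filter. The genes of this branch are also induced by other stresses.

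Of 10 other mitochondrial chaperones and proteases, 6 fell (60%, against 29.3% of all genes) and 0 rose by limma, with 0 higher at an unadjusted p under 0.05 or by the methods' test, and the median was -0.38. Clpx, which unfolds proteins for the protease Clpp, gave 815.3, 852.5 and 979.1 in Cy/+ and 2221, 2237 and 2083 in +/+ (-1.31 ± 0.09, adjusted p = 4.69e-05). Of 10 other genes of ER-associated degradation, 3 rose and 2 fell (30% and 20%), below the 37.4% and 29.3% of all genes. Of 6 tested ER stress transcription factors and proteases 3 rose (50%, against 37.4% of all genes), among them Mbtps1 (0.31) and Mbtps2 (0.47), which cut ATF6. Of 11 other translocon genes 1 rose and 2 fell (9.09% and 18.2%), also below the shares of all genes. Of 28 other cytosolic chaperones 8 rose and 4 fell (28.6% and 14.3%), again below them. Among the last were Bag1 and Bag2, exchange factors of HSP70, which rose by 0.63 and 0.69, and the J protein Dnajc7, which rose by 0.22.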

How the data were processed

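Whole-kidney RNA was measured on 6 arrays, 3 of Cy/+ and 3 of +/+ rats. The authors made biotin-labeled cRNA from total RNA with a one-cycle protocol that starts at the 3′ end, and read the images with GCOS 1.2, and the submitters' processing notes name MAS5. The deposited values are linear signal intensities, 1 per probe set, from 10.65 to 32240, without detection calls, and how they were scaled between arrays is not given in the sources used here. Precision is limited by having 3 arrays per genotype. No column was left unassigned to a sample.

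Values were taken to log2 with no pseudocount and no further scaling. Of 31099 probe sets, 57 controls were left out, and tests were run on the 18625 whose mean log2 signal was at least 6.28 (the 40th percentile, 77.8 on the linear scale). Symbols came from the platform annotation, updated through Entrez IDs with a table of the assembly GRCr8 (20764 of the 20832 probe sets with 1 symbol matched, 436 had several symbols and 9831 none). Ero1l was found under its current name Ero1a. The probe set of highest mean signal represented a gene. Cy/+ was compared with +/+ with limma 3.58.1 in R 4.3.3 (lmFit, eBayes with intensity trend, no covariate, Benjamini-Hochberg adjustment over all tested probe sets, threshold 0.05). The fit was tested on simulated data.

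The genes, their roles, the further lists and the alternatives were chosen with earlier results of these data known. Arrays are given one by one for up to 4 genes of largest change each way in each role, for a fixed set of hallmark genes and for genes whose probe sets passed in both directions. Other values were chosen after they were seen. The fit was repeated with quantile normalized or median centred arrays, with 16 added to each signal, unfiltered or filtered at the 60th percentile, without the intensity trend, with array weights, with the methods' test, with a replicate block, and without each array. It was also repeated without probe sets shared by several transcripts, with each gene as the average over its probe sets, and with its dimmest tested probe set, the last added after seeing the data. A planned comparison of protein sequences was not done, as no protein table was used here. The study's cell, PCR and treatment experiments are not analysed here.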

Additional observations from a re-analysis of the deposited data

Results flagged for a closer look

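The probe set annotated to Hspa1b and Hspa1a together, which represents no gene in the counts above, had a log2 fold change of 1.74, and its 3 Cy/+ signals all lay above its 3 +/+ signals. Control RNA that carries no rat sequence was also brighter on the Cy/+ arrays, with a median fold of 1.83 for the hybridization controls and 3.82 for the poly-A controls. All of these values lie outside the genes counted above. Among probe sets shared between a listed gene and another entry, only those that passed as higher were picked. Those of Hspa8 and Hsp90aa1 did not pass and were left out. The part of the control values in the differences of the chaperone genes was not tested.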

How the results depend on the processing

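With 3 arrays per genotype and a single scaling of unknown kind, small differences are the least secure. Of the 25 genes that passed, 13 kept their call and direction in all 19 alternative settings: Dnajb9, Dnajc3, Ero1l, Herpud1, Sel1l, Derl1, Serp1, Hspa1a, Hspb1, Cryab, Bag3, Hspd1 and Hspe1. For Derl1 no setting used its middle probe set by itself, which did not pass. The totals of 10 higher and 15 lower stayed within 1.5 times in every setting. Quantile normalization, which shifted the median of all tested probe sets by -0.05, gave 6 higher ER chaperones, 2 higher sensors and 2 higher translocon genes. The genes gained as higher were Canx, Xbp1, Serpinh1, Ssr4 and Pdia4. Its shift differed between genes, with Hsp90b1 at 0.28 instead of 0.04 and Ero1l at 0.28 instead of 0.41. Centring, which shifted the median by -0.07, gave 3 higher cytosolic genes. With array weights 2 ER chaperones and 7 cytosolic genes were lower and 3 cytosolic genes higher. The methods' test gave 3 higher and 2 lower cytosolic genes, without adjustment and after Benjamini-Hochberg. With probe sets averaged per gene there were 2 lower ER chaperones, 0 higher sensors and 0 higher and 4 lower translocon genes, and Canx (-0.67), Sec61a1 (-0.30) and Dnajb1 (-0.33) turned direction. With the dimmest probe set there were 3 lower ER chaperones, 0 higher sensors, 0 higher translocon genes, 3 higher cytosolic genes and 1 higher mitochondrial gene, and Canx (-1.49), Hyou1 (-0.79), Sec61a1 (-1.0), Dnajb1 (-0.93), Fkbp5 (-0.29) and Hspa9 (0.89) turned direction. Leaving out each array in turn gave 7 to 11 higher and 11 to 21 lower genes in all, 1 to 3 lower ER chaperones, and 3 to 6 higher and 2 to 7 lower cytosolic genes. The highest counts of lower genes came without Cy/+ replicate 1. Cytosolic genes were 3 higher without Cy/+ replicate 1 or without any single +/+ replicate, and 2 lower without Cy/+ replicate 3, +/+ replicate 1 or +/+ replicate 2. With the replicate block, 9 genes were higher and 14 lower, with P4hb, Dnajb1 and Edem1 lost and Pdia4 gained. Deviations from the genotype means correlated at 0.147, -0.11 and -0.151 for same-numbered arrays. For the other pairs across genotypes they correlated at -0.116 to 0.235. These values cannot decide whether the numbers pair the arrays. The causes were not tested.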

Other observations

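Other folding genes moved in both directions within the ER. Of 15 further ER folding genes, 8 rose and 6 fell (53.3% and 40%), against 37.4% and 29.3% of all genes. Txndc5, a disulfide isomerase, gave 2091, 1885 and 1602 in Cy/+ and 990.8, 920.2 and 901.9 in +/+ (log2 fold change 0.98 ± 0.11, limma adjusted p = 0.000266), and Ppib, a prolyl isomerase that works on collagen, rose by 0.39. Ero1lb, the second ER oxidase, rose by 0.93. Uggt1, which marks unfolded glycoproteins for another round with the lectin chaperones, gave 118.5, 124.5 and 141.5 in Cy/+ and 252.7, 252 and 197.6 in +/+ (-0.86 ± 0.13, adjusted p = 0.00102), and Sil1, an exchange factor of BiP, fell by 0.64.

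In the cytosol, 3 of the 8 chaperonin subunits on the list rose (Cct4 by 0.43, Cct5 by 0.34 and Cct7 by 0.21) and the others did not pass, a share close to the 37.4% of all genes that rose. The small heat shock proteins Hspb6 and Hspb7 fell, by 1.03 and 0.39, in the same direction as Cryab. Hspa2, an HSP70 best known from the testis, gave 181.4, 255.9 and 265.2 in Cy/+ and 67.3, 96.75 and 70.78 in +/+ (1.58 ± 0.20, adjusted p = 0.000396). Rnf5, a ubiquitin ligase of ER-associated degradation, gave 552.7, 474.9 and 606.8 in Cy/+ and 1634, 1741 and 1414 in +/+ (-1.55 ± 0.12, adjusted p = 6.58e-05).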
